A study of Mus musculus with 16 samples.

Results

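The miR-135 miRNAs of the mouse lung were followed across an ovalbumin (OVA) model of allergic airways disease. All rows of the arrays whose names begin with mmu-miR-135a or mmu-miR-135b were taken, which gave 3 of the 611 mouse miRNAs on the arrays: miR-135b-5p, miR-135a-1-3p and miR-135a-5p. The members were chosen by the array levels of miR-135b-5p, which are low in PBS/PBS and higher after OVA challenge, so every comparison with PBS/PBS is given below as a description, with no test. Total RNA of whole lungs was measured on 16 1-colour Agilent arrays, and the level used throughout is the log2 of the spot intensity summed over the probes of a miRNA and scaled between arrays.

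All mice were BALB/c, 8 to 12 weeks old, and all received 1 mg Alhydrogel, an aluminium adjuvant, by i.p. injection on day 0. PBS/PBS mice (2 arrays) received the adjuvant without OVA and were then challenged intranasally with PBS. PBS/OVA mice (4 arrays) were likewise not sensitised, but were challenged with 10 μg OVA daily from day 12 to day 15. OVA/OVA mice (6 arrays) were sensitised with 50 μg OVA in the adjuvant and given the same OVA challenges. OVA/OVA DEX mice (4 arrays) were handled as OVA/OVA and also received dexamethasone (DEX, a synthetic glucocorticoid) at 3 mg/kg i.p. from day 11, every second day. The labels give PBS as the treatment of the other groups. Lungs were taken 24 hours after the last challenge. The labels number the arrays of a group without naming the animals, so the p-values measure the spread between these arrays.

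A miRNA guides silencing proteins to messenger RNAs that pair with its bases 2 to 8, the seed. Each miRNA hairpin yields a 5p and a 3p strand, whose seeds differ and which therefore pair with different messengers. The 5p strands of miR-135a and miR-135b are the guide strands of the miR-135 family, known from other tissues for targeting APC, a brake on Wnt signalling, and JAK2, a kinase of cytokine receptors. MiR-135b is known to rise in mouse lung after inhaled particles.

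RefSeq held the mature sequence of 2 of the 3 members (GRCm38.p6). They are shown because they are the opposite strands of 1 hairpin, of which the 3p strand was detected on the arrays and the 5p strand was not; capitals mark the seed.
miR-135a-1-3p: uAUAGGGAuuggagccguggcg
miR-135a-5p: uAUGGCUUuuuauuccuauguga
MiR-135a-1-3p has 22 bases and lies at chr9:106154179-106154200 on the plus strand, in the hairpin gene Mir135a-1 at chr9:106154124-106154213. This hairpin lies within the span of Glyctk, a protein-coding gene, and of the long non-coding RNA D030055H07Rik. MiR-135a-5p has 23 bases and comes from the same hairpin, at chr9:106154140-106154162. It also comes from Mir135a-2 on the minus strand, at chr10:92072141-92072163, where no other listed gene overlaps. Mir135b, the hairpin gene of miR-135b-5p, lies at chr1:132198088-132198184 within the spans of Lemd1, a protein-coding gene, and Gm29695, a long non-coding RNA.

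Both miR-135b-5p and miR-135a-1-3p were detected on all 16 arrays, whereas miR-135a-5p was detected on 0 of them. The arrays lay on 2 slides, each scanned 1 time, with both PBS/PBS arrays on slide 1 and the other groups on both slides. Between 224 and 301 mouse miRNAs were detected per array, 0 spots were saturated, and the summed signal before scaling ran from 251350 to 733489 in OVA/OVA, which held the dimmest array, and from 493063 to 940050 in the other groups. Precision is limited by how many arrays each group has. In whole lung, fewer cells of a type and less of a miRNA per cell cannot be told apart.

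In PBS/PBS, the log2 level of miR-135b-5p was 4.48 and 5.20 on the 2 arrays. In PBS/OVA it was 6.36, 6.51, 6.39 and 7.35, and in OVA/OVA it ran from 6.52 through a median of 7.19 to 7.35. In OVA/OVA DEX it was 4.90, 4.74, 5.30 and 4.60. The 16 arrays thus lay in 2 ranges, with both PBS/PBS and all OVA/OVA DEX arrays at 5.30 or below and all PBS/OVA and OVA/OVA arrays at 6.36 or above. In order of the means, OVA/OVA (7.07 ± 0.311, SD, n = 6) came before PBS/OVA (6.65 ± 0.47, n = 4), OVA/OVA DEX (4.88 ± 0.299, n = 4) and PBS/PBS (4.84 ± 0.507, n = 2). The ranges of OVA/OVA and PBS/OVA overlapped, as did those of OVA/OVA DEX and PBS/PBS.

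For miR-135a-1-3p, the level was 4.72 and 4.45 in PBS/PBS. It was 5.41, 6.48, 5.01 and 5.07 in PBS/OVA, and in OVA/OVA it ran from 5.80 through a median of 6.53 to 7.01. In OVA/OVA DEX it was 4.55, 3.55, 4.73 and 4.71. The OVA/OVA arrays were high and the PBS/PBS and OVA/OVA DEX arrays low, with the PBS/OVA arrays between them except replicate 2, which lay among the OVA/OVA arrays. In order of the means, OVA/OVA (6.45 ± 0.522, SD, n = 6) came before PBS/OVA (5.49 ± 0.684, n = 4), PBS/PBS (4.58 ± 0.192, n = 2) and OVA/OVA DEX (4.38 ± 0.563, n = 4). Again, OVA/OVA overlapped with PBS/OVA, and PBS/PBS with OVA/OVA DEX. PBS/OVA replicate 2 also stood apart from the other PBS/OVA arrays for further miRNAs, in both directions. For example, miR-21-5p was 15.77 on it against 14.98 to 15.32, and miR-144-3p was 11.38 against 12.24 to 12.57.

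MiR-135a-5p had a signal near background in every group. Its summed signal before scaling was 3.11 to 7.74 over all arrays, against 23.4 to 206 for miR-135b-5p and 13.2 to 161 for miR-135a-1-3p, each measured with its own probes. Of its 320 spots on the 16 arrays, 2 were well above background. On the log2 scale, its scaled arrays reached at most 2.18 in PBS/PBS, 2.20 in PBS/OVA, 3.1 in OVA/OVA and 3.00 in OVA/OVA DEX, with a floor of 1.38 set for all miRNAs. No difference between groups was tested for it, and its values near background have no reliable order.

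**Figure D1:**
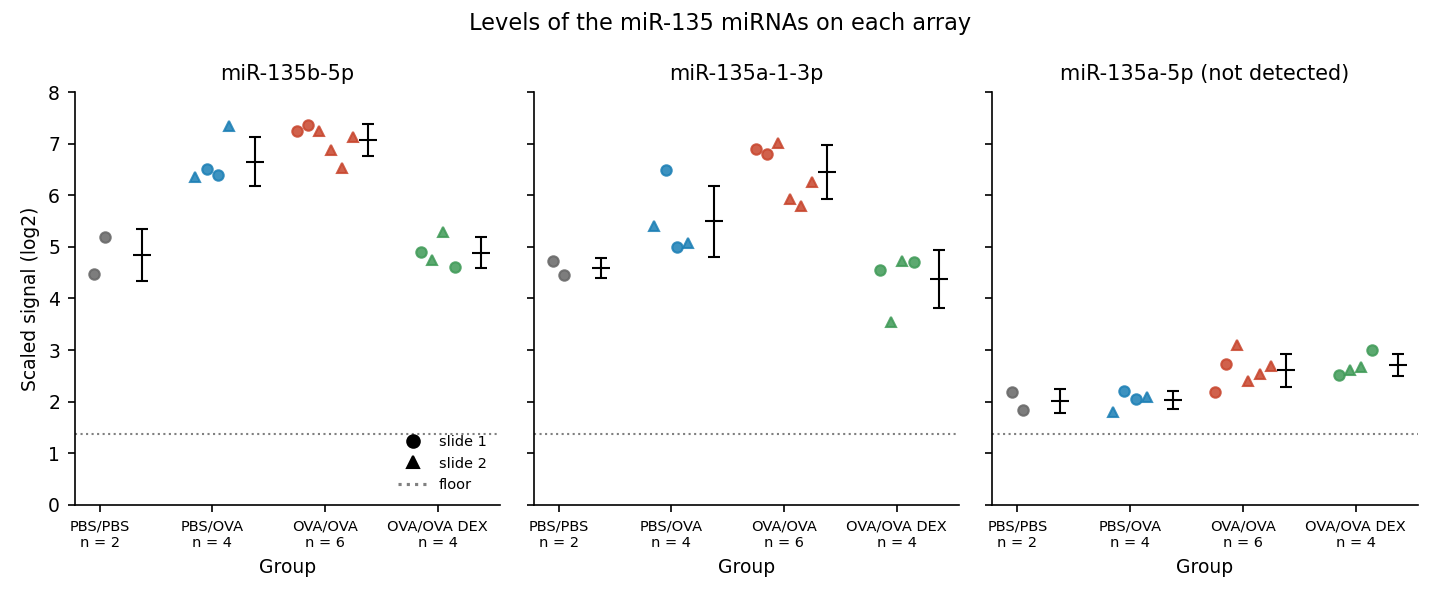
Log2 scaled signal (y axis) of miR-135b-5p, miR-135a-1-3p and miR-135a-5p on each array, by group; circles are slide 1, triangles slide 2, the bars give the mean and SD, and the dotted line is the floor at 1.38. MiR-135b-5p lay at 6.36 or above in PBS/OVA and OVA/OVA and at 5.30 or below in PBS/PBS and OVA/OVA DEX, whereas the mean of miR-135a-1-3p was highest in OVA/OVA and miR-135a-5p, not detected, stayed at 3.1 or below.

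The probes of each miRNA were then looked at singly. MiR-135b-5p was measured by 2 probes of 10 spots each, and both carried signal. The scaled signal of its second probe was 13.4 and 20.6 on the PBS/PBS arrays and spanned 42.7 to 90.1 for PBS/OVA, 51.0 to 91.5 for OVA/OVA and 13.5 to 20.8 for OVA/OVA DEX. The difference between OVA/OVA and OVA/OVA DEX was 2.14 on the log2 scale with the first probe and 2.22 with the second, so both probes gave a like value. Of the 20 spots of miR-135b-5p, 19 or 20 were well above background on each OVA/OVA array and 3 to 12 on each OVA/OVA DEX array.

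MiR-135a-1-3p was measured by 4 probes of 5 spots each, which did not behave alike. Its first and second probes stayed near 0, with scaled signals from -4.87 to 7.89 and 0 spots well above background on any array. The last 2 probes carried the signal, with 22.7 to 51.0 and 32.5 to 72.0 in OVA/OVA against 5.71 to 13.3 and 9.23 to 20.0 in OVA/OVA DEX. In OVA/OVA DEX, the third probe had 0 spots well above background on every array and the last had 0 to 3 of 5. Replicate 2 had 0 such spots for this miRNA, and its level in OVA/OVA DEX lies close to the background. With that limit, the log2 difference between OVA/OVA and OVA/OVA DEX was 1.82 with the third probe and 1.73 with the last.

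**Figure D2:**
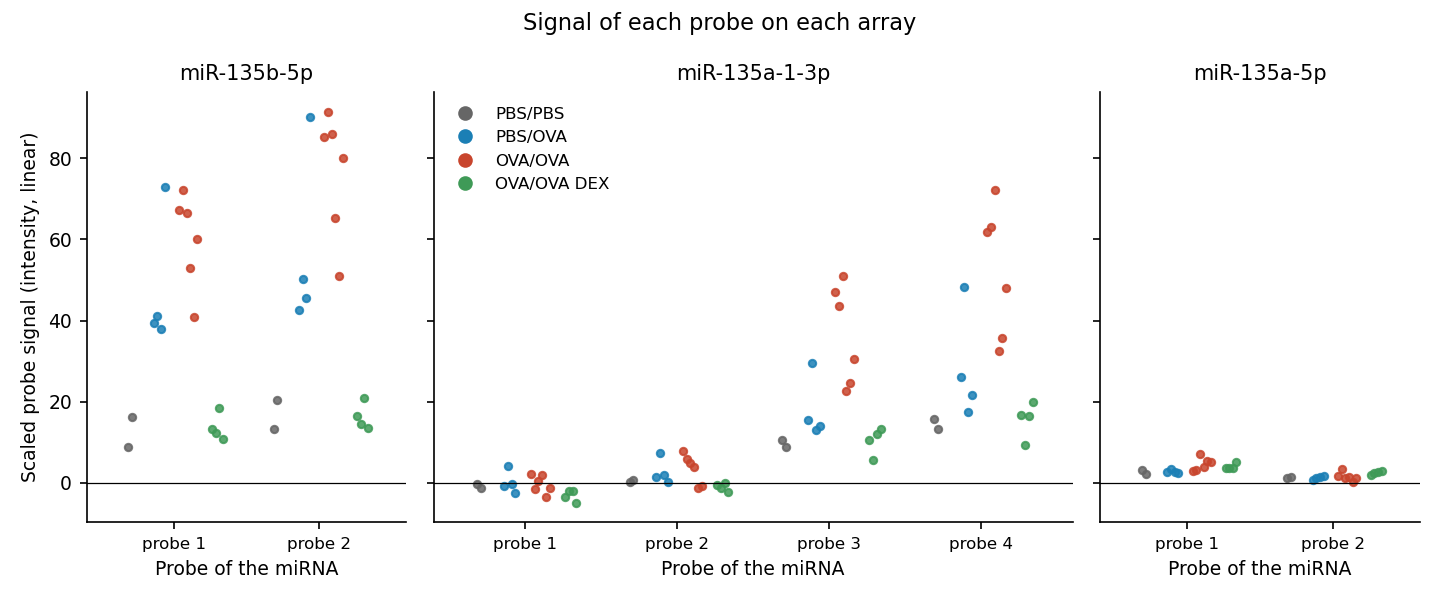
Scaled signal of each probe (y axis, linear intensity) for the 3 miRNAs; each point is 1 array, coloured by group, and probes are numbered within a miRNA. Both probes of miR-135b-5p and the last 2 probes of miR-135a-1-3p carried signal, whereas the other probes lay near 0 in every group.

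The first comparison asked how DEX treatment altered these miRNAs in sensitised and challenged mice. MiR-135b-5p was 4.53-fold higher in OVA/OVA than in OVA/OVA DEX, a difference of 2.18 on the log2 scale (SE 0.230, 95% interval 1.69 to 2.68, limma adjusted p = 1.58e-05). MiR-135a-1-3p was 4.18-fold higher, by 2.06 on the log2 scale (SE 0.342, 95% interval 1.33 to 2.8, limma adjusted p = 0.000392). The size of this difference rests on OVA/OVA DEX levels near background, where 0 to 3 of its 20 spots per array were well above it. The summed level also takes in the 2 probes without signal, the first of them below 0 on every OVA/OVA DEX array (-4.87 to -1.94). The third and last probes alone gave smaller log2 differences, 1.82 and 1.73. Both miRNAs were called, with a call requiring an adjusted p under 0.05 over all 266 miRNAs tested and a change of at least 2-fold. Over all miRNAs tested, 9.4% were called higher in OVA/OVA. By size of the difference, miR-135b-5p was number 7 of the 266 miRNAs. For both, the 6 OVA/OVA arrays lay above the 4 OVA/OVA DEX arrays without overlap, as was so for 14.7% of all miRNAs tested. Membership rested in part on the high OVA/OVA level of miR-135b-5p, so its test here is not independent of the choice, although OVA/OVA DEX arrays were not used for it.

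The difference was present on both slides. Within slide 1 it was 2.55 for miR-135b-5p and 2.22 for miR-135a-1-3p, and within slide 2 it was 1.93 and 2.11. With normexp background correction, which adds 50 to every spot signal, the differences fell to 0.88 (limma adjusted p = 0.00198, under 2-fold) and 0.53 (limma adjusted p = 0.104), and neither was called. With the deposited processed values, in which OVA/OVA DEX replicate 4 stands apart from its own scanner signal, miR-135b-5p differed by 1.02 (limma adjusted p = 0.21), and by 2.02 (limma adjusted p = 0.000202) without that array.

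OVA/OVA was set against PBS/OVA to ask how prior sensitisation altered the miRNAs among challenged mice. MiR-135b-5p differed by 0.41 on the log2 scale (SE 0.230, 95% interval -0.081 to 0.91, limma adjusted p = 0.178), which did not pass the test. MiR-135a-1-3p was 1.94-fold higher in OVA/OVA, by 0.96 (SE 0.342, 95% interval 0.22 to 1.69, limma adjusted p = 0.0493). It lay just under the p threshold and short of the 2-fold requirement, so neither member was among the 5.26% of miRNAs called in either direction. By size of the difference, miR-135a-1-3p was number 30 and miR-135b-5p number 100 of 266. PBS/OVA arrays were in view when miR-135b-5p was picked for its rise with challenge.

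For miR-135b-5p the direction itself was unsettled, since the difference was -0.10 without scaling between arrays and -0.21 with scaling by control spots, and within slides it was 0.85 on slide 1 and 0.093 on slide 2. PBS/OVA replicate 4, the highest array of its group, lay on slide 2, and without it the difference was 0.65 (limma adjusted p = 0.0379), still under 2-fold. For miR-135a-1-3p the difference was 1.10 within slide 1 and 1.01 within slide 2. Its adjusted p was over 0.05 in 11 of 18 alternatives, among them scaling by control spots (0.33, limma adjusted p = 0.408), no scaling (0.44, limma adjusted p = 0.401), quantile normalization (0.62, limma adjusted p = 0.27) and the exact Mann-Whitney test (adjusted p = 0.158). It was over 0.05 in 12 of the 16 fits with 1 array left out, up to 0.148 without PBS/OVA replicate 3 (0.79). On the other side, it was called with the slide as a block (1.04, limma adjusted p = 0.0219), with the brightest probe (1.02, limma adjusted p = 0.0331) and without PBS/OVA replicate 2 (1.29, limma adjusted p = 0.00783), OVA/OVA replicate 4 (1.06, limma adjusted p = 0.0353) or OVA/OVA replicate 5 (1.09, limma adjusted p = 0.0289). Whether miR-135a-1-3p passed this test therefore depended on the processing and on single arrays. Without PBS/OVA replicate 2, 18 instead of 9 of all miRNAs tested were called higher in OVA/OVA. The weight of that array was thus not particular to miR-135a-1-3p.

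The comparison of OVA/OVA DEX with PBS/OVA set sensitised, DEX-treated mice against mice that were challenged without sensitisation or DEX. MiR-135b-5p was lower in OVA/OVA DEX, by 3.40-fold, a log2 difference of -1.77 (SE 0.252, 95% interval -2.31 to -1.22, limma adjusted p = 0.00196). Its high PBS/OVA level was among the values it was chosen by, so this test is not independent of the choice. It was 1 of 2 miRNAs called, or 0.752% of those tested, and all 4 OVA/OVA DEX arrays lay below all 4 PBS/OVA arrays, as was so for 7.52% of all miRNAs tested. The other called miRNA was miR-449a-5p, a miRNA of ciliated airway cells, with a log2 difference of -1.59 (SE 0.298, limma adjusted p = 0.00781). The 6 miRNAs tested from ciliated cells had a median difference of 0.253 in this comparison, and those of miR-34b-5p (0.20) and miR-34c-5p (0.31) were positive and not called. MiR-449c-5p was lower without overlap and not called (limma adjusted p = 0.183). No size is given for it, since all OVA/OVA DEX arrays lay at the floor. The unadjusted limma p was under 0.05 for 4 of the 6, in both directions, against 22.2% of all miRNAs tested. The difference of miR-135a-1-3p was -1.11 (SE 0.374, 95% interval -1.91 to -0.30, limma adjusted p = 0.131), which did not pass the test, although the arrays did not overlap.

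Within slides, miR-135b-5p differed by -1.70 on slide 1 and -1.83 on slide 2. The call was lost with normexp background correction (-0.45, limma adjusted p = 0.423), with the processed values (-0.63, limma adjusted p = 0.736; without OVA/OVA DEX replicate 4, -1.63, limma adjusted p = 0.0172) and with the exact Mann-Whitney test (adjusted p = 0.185), which cannot go below p = 0.0286 for 4 arrays against 4. The 3 comparisons share arrays pairwise, so their results are not independent of each other.

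**Figure D3:**
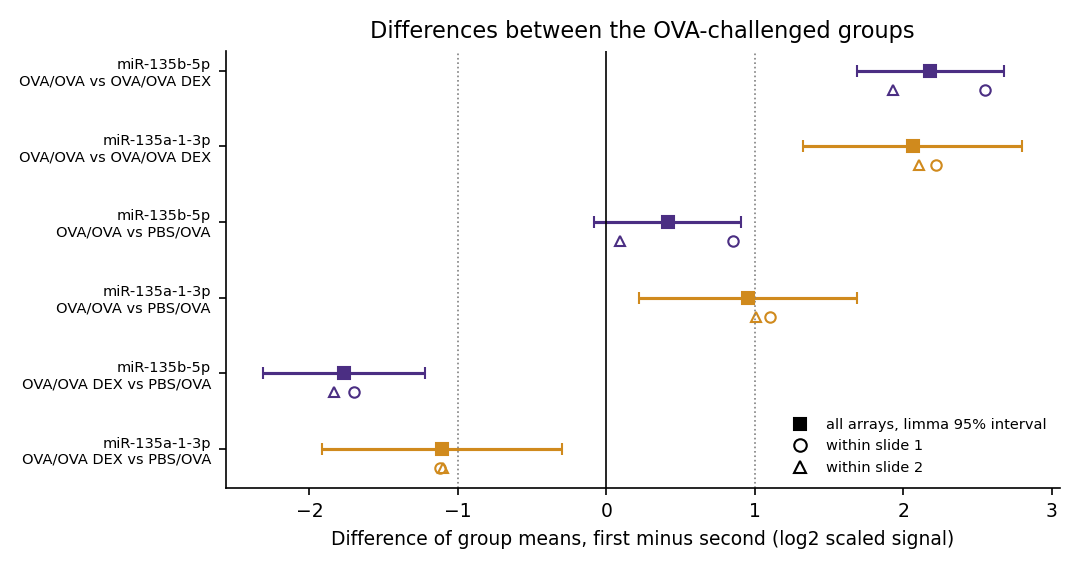
Differences of group means on the log2 scale (x axis, first group minus second) for miR-135b-5p and miR-135a-1-3p; squares with bars are the limma estimates with 95% intervals, open circles and triangles the differences within slides 1 and 2, and dotted lines mark 2-fold. Both miRNAs exceeded 2-fold between OVA/OVA and OVA/OVA DEX, and the interval of miR-135b-5p crossed 0 between OVA/OVA and PBS/OVA.

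Compared to PBS/PBS, which was used for the choice and is therefore given without a test, miR-135b-5p was higher by 1.81 on the log2 scale in PBS/OVA and by 2.23 in OVA/OVA, while the difference was 0.045 in OVA/OVA DEX. For miR-135a-1-3p the corresponding differences were 0.91, 1.86 and -0.20. The array ranges lay above PBS/PBS in PBS/OVA and OVA/OVA for both miRNAs, and those of OVA/OVA DEX overlapped with PBS/PBS. Of all miRNAs tested, 14.3% lay above PBS/PBS without overlap in PBS/OVA and 25.9% in OVA/OVA. Both PBS/PBS arrays lay on slide 1, where the differences of miR-135b-5p were 1.61, 2.46 and -0.090 in the same order. The values also moved with the scaling. Without scaling between arrays, miR-135a-1-3p differed by 0.33, 0.77 and -1.01, and miR-135b-5p in OVA/OVA DEX by -0.76, against 1.20 with the processed values (0.20 without OVA/OVA DEX replicate 4).

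Whether both miRNAs responded to the same extent was tested on the log2 difference of miR-135b-5p minus miR-135a-1-3p within each array. This difference averaged 0.62 ± 0.283 (SD, n = 6) in OVA/OVA, 0.50 ± 0.541 (n = 4) in OVA/OVA DEX and 1.16 ± 0.937 (n = 4) in PBS/OVA. For OVA/OVA against OVA/OVA DEX it differed by 0.12 (exact permutation test, two-sided, p = 0.657, adjusted over 2 comparisons p = 0.657). For OVA/OVA against PBS/OVA it differed by -0.54 (exact permutation test, two-sided, p = 0.248, adjusted p = 0.495). Neither passed the threshold, and the smallest p possible was 0.00952. The high PBS/OVA and OVA/OVA levels of miR-135b-5p were among the values it was chosen by. These tests, also with an array left out, are therefore not independent of the choice. The wide spread in PBS/OVA came from replicate 2, at 0.028, the array of the group with the highest miR-135a-1-3p, and replicate 4, at 2.28, that with the highest miR-135b-5p. Without replicate 2 the change between OVA/OVA and PBS/OVA was -0.92 (exact permutation test, p = 0.0476), and without OVA/OVA DEX replicate 4 that between OVA/OVA and OVA/OVA DEX was -0.084 (exact permutation test, p = 0.714).

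**Figure D4:**
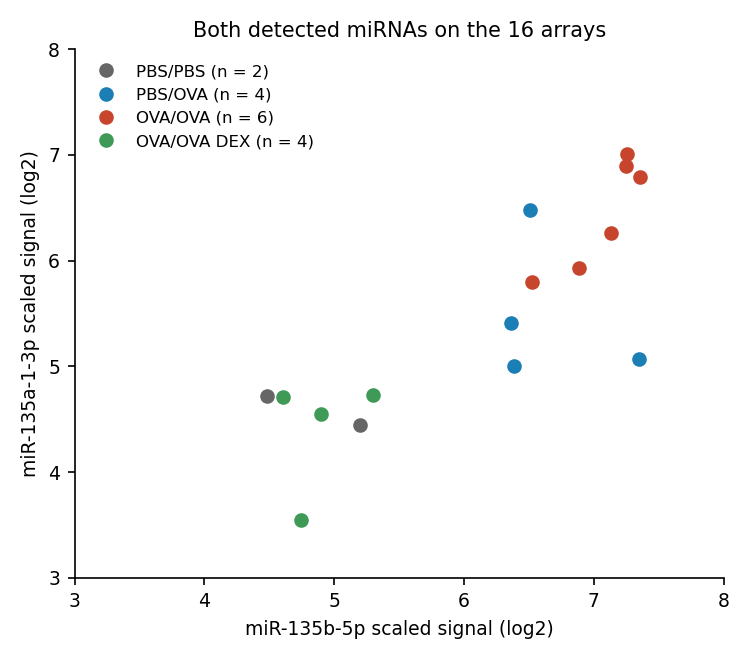
Log2 scaled signal of miR-135b-5p (x axis) and miR-135a-1-3p (y axis) on the 16 arrays, coloured by group. OVA/OVA arrays lay high for both miRNAs and PBS/PBS and OVA/OVA DEX arrays low for both, whereas PBS/OVA arrays were high for miR-135b-5p and, except replicate 2 at 6.48, at 5.41 or below for miR-135a-1-3p.

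Among the other miRNAs detected on all arrays, those whose log2 levels followed miR-135b-5p most closely over the 16 arrays were miR-146b-5p (Pearson r = 0.94), miR-21-5p (r = 0.87) and miR-342-3p (r = 0.85), and miR-135a-1-3p was number 4 (r = 0.83). For miR-135a-1-3p they were miR-146b-5p (r = 0.93), miR-21-5p (r = 0.93) and miR-155-5p (r = 0.89), and miR-135b-5p was number 16. These values are a description, since the arrays fall into the 4 groups and share their scaling. For deviations from the group means, r between miR-135b-5p and miR-135a-1-3p was 0.20, against 0.62 between miR-135b-5p and miR-146b-5p and 0.74 between miR-135a-1-3p and miR-21-5p.

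MiR-146b-5p, known to be induced by NF-κB and STAT3 signalling, had log2 levels of 9.75 and 9.94 in PBS/PBS, between 10.27 and 10.61 in PBS/OVA, between 10.71 and 11.01 in OVA/OVA and between 9.75 and 9.98 in OVA/OVA DEX. By group means it had the same order of groups as miR-135b-5p, although OVA/OVA DEX and PBS/PBS, the lowest groups, overlapped for both miRNAs. It was higher in OVA/OVA than in OVA/OVA DEX by 0.97 (SE 0.0919, limma adjusted p = 1.58e-05), just under 2-fold. MiR-155-5p, a miRNA of activated immune cells, differed by 2.60 (SE 0.269, limma adjusted p = 1.58e-05) and was called. Its PBS/OVA arrays, at 6.46 to 7.25, were close to PBS/PBS, at 6.44 and 6.96, in contrast to the PBS/OVA arrays of miR-135b-5p.

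Lists of miRNAs known from cell types of the lung were compared beside the members. Of 7 inflammation-responsive miRNAs, 6 were tested and 2 were called higher in OVA/OVA than in OVA/OVA DEX, against 9.4% of all miRNAs tested. Their median log2 difference was 0.82, against -0.088 over all miRNAs tested, and the unadjusted limma p was under 0.05 for 4, against 60.5%. They included miR-21-5p, which differed by 1.45 (SE 0.178, limma adjusted p = 4.19e-05), whereas the difference of miR-146a-5p was 0.061 (SE 0.112, limma adjusted p = 0.673). Against PBS/OVA, 1 of the 6 was called higher in OVA/OVA, against 3.38% of all miRNAs tested, and the unadjusted limma p was under 0.05 for 4, against 44.7%. These 4 ran in both directions, since miR-146a-5p was lower in OVA/OVA, by a log2 difference of -0.29 (SE 0.112, limma adjusted p = 0.0597). Between OVA/OVA DEX and PBS/OVA 0 were called by limma or the exact Mann-Whitney test, with an unadjusted limma p under 0.05 for 4, against 22.2% of all miRNAs tested.

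Of 5 haematopoietic miRNAs, all tested, 1 was called higher in OVA/OVA than in OVA/OVA DEX and 2 were called higher than in PBS/OVA, against 9.4% and 3.38% of all miRNAs tested. The unadjusted limma p was under 0.05 for all 5 in both comparisons, as it was for 60.5% and 44.7% of all miRNAs tested. MiR-142-3p, found throughout blood cell lineages, was higher in OVA/OVA by 1.05 (SE 0.159, limma adjusted p = 0.000188) and 1.03 (SE 0.159, limma adjusted p = 0.00048) in these comparisons. MiR-223-3p, abundant in neutrophils and other myeloid cells, was higher than in PBS/OVA by 1.12 (SE 0.155, limma adjusted p = 0.00032). The log2 of their summed level spanned 15.00 to 15.56 for OVA/OVA arrays, 14.17 to 14.73 for OVA/OVA DEX, 13.99 to 14.56 for PBS/OVA and 14.35 to 14.52 for PBS/PBS. OVA/OVA thus lay above the other groups, whose ranges overlapped. The part of these miRNAs in the results was not tested.

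Of 8 epithelial miRNAs, 7 were tested. Called among them were 0 in any of the 3 comparisons, by limma and by the exact Mann-Whitney test, while the unadjusted limma p was under 0.05 for 5 of them between OVA/OVA and OVA/OVA DEX, 3 between OVA/OVA and PBS/OVA and 0 between OVA/OVA DEX and PBS/OVA, against the shares of 60.5%, 44.7% and 22.2% over all miRNAs. The log2 of their summed level, mostly of miR-200b-3p, miR-200a-3p and miR-200c-3p, was 13.10 to 13.38 over all 16 arrays, and OVA/OVA, PBS/OVA and OVA/OVA DEX overlapped. Of 7 miRNAs of ciliated cells, 6 were tested and 2 were called higher in OVA/OVA than in OVA/OVA DEX, miR-449a-5p by 2.04 (SE 0.272, limma adjusted p = 8.77e-05) and miR-449c-5p (limma adjusted p = 0.00771), for which no size is given because all OVA/OVA DEX arrays, and OVA/OVA replicate 5, lay at the floor of 1.38. By the exact Mann-Whitney test 1 of the 6 was called. Of all miRNAs tested, 9.4% were called higher by limma in this comparison. The unadjusted limma p was under 0.05 for all 6, as for 60.5% of all miRNAs tested. The differences of miR-34b-5p and miR-34c-5p, -0.28 and -0.36, ran the other way. Of 3 red cell miRNAs, 2 were tested, since miR-486-5p was not found on the arrays under that name. Both of those tested, miR-451 and miR-144-3p, were lower in OVA/OVA than in OVA/OVA DEX, by a log2 difference of -1.04 (SE 0.196, limma adjusted p = 0.000903) and -1.06 (SE 0.203, limma adjusted p = 0.001). Both were called, against 3.38% of all miRNAs called lower. Of the 2 endothelial miRNAs and the 2 of smooth muscle, 0 were called in any comparison by limma or by the exact Mann-Whitney test. Their unadjusted limma p was under 0.05 for both lists between OVA/OVA and OVA/OVA DEX (as for 60.5% overall), for the endothelial list between OVA/OVA and PBS/OVA (44.7%), and for the list of smooth muscle between OVA/OVA DEX and PBS/OVA (22.2%).

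**Figure D5:**
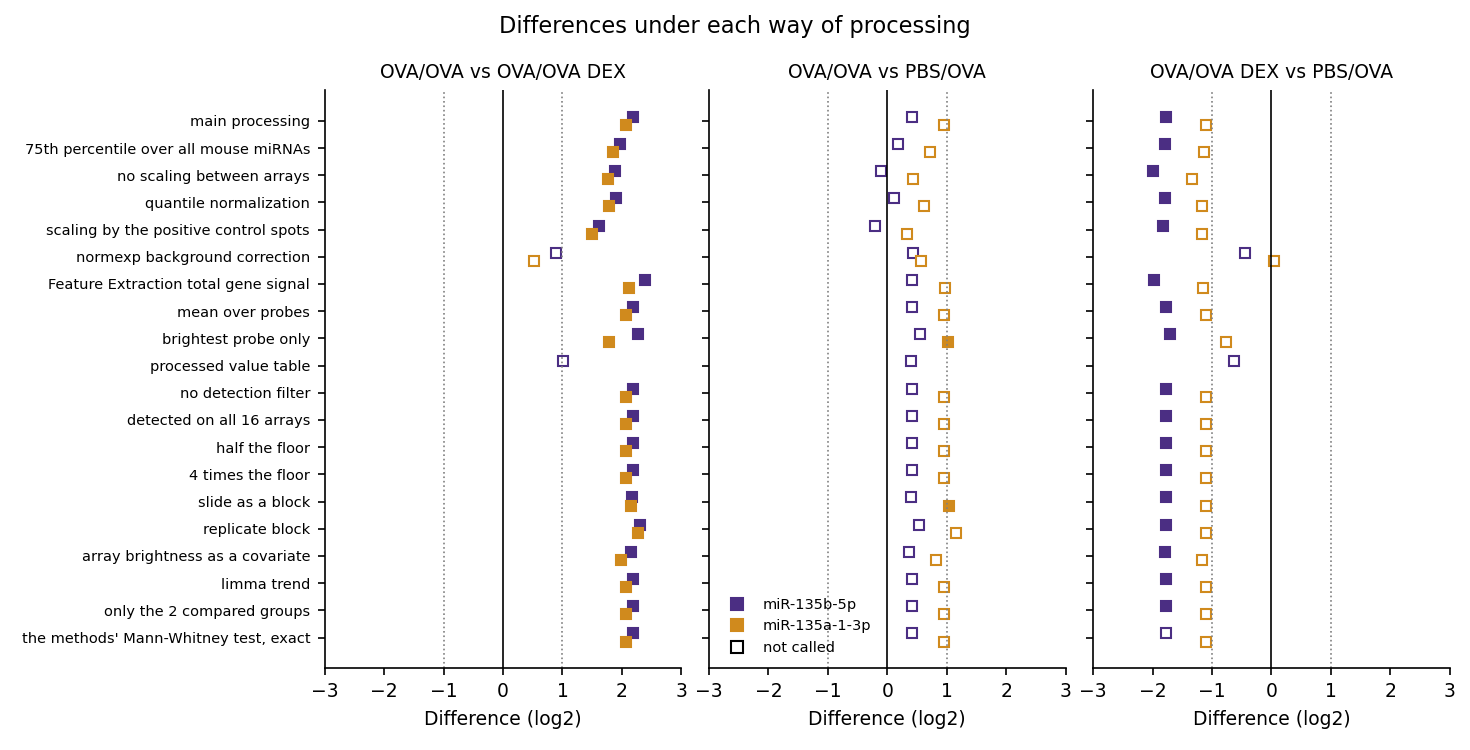
Log2 differences (x axis) of miR-135b-5p and miR-135a-1-3p in the 3 comparisons under each way of processing or testing (rows); filled squares were called and open squares were not, and dotted lines mark 2-fold. Between OVA/OVA and OVA/OVA DEX the differences were called in every row except normexp background correction and, for miR-135b-5p, the processed value table. MiR-135a-1-3p has no value in that last row.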

How the data were processed

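Per the labels, total RNA of 16 lungs was labelled with Cy3 and hybridised to Agilent mouse miRNA Release 12.0 arrays. The authors deposited the spot intensity output of Feature Extraction 10.7.3.1, with background subtracted and no scaling between arrays, and a table of processed log2 values of the same arrays whose scaling is not given in the sources used here. The paper's Methods describe OVA challenge of all mice, and the labels, which give PBS challenge for PBS/PBS, were followed.

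After removal of control and outlying spots, spots were averaged per probe and probes summed per miRNA. Arrays were scaled to a common 75th percentile, taken over 206 mouse miRNAs found by Feature Extraction on all of them. A floor of 2.60, the median across arrays of the lowest detected signal, was applied before log2. One limma 3.58.1 model of 4 group means (R 4.3.3) covered the 16 arrays, with Benjamini-Hochberg adjustment over 266 miRNAs, those with detection on each array of any group. Calls needed an adjusted p under 0.05 and at least 2-fold. The fit was tested on simulated data. Exact permutation tests used scipy 1.17.1 in Python 3.11.15. The methods' Mann-Whitney test was run exactly, with the same adjustment. The processed values were used as an alternative for 272 miRNAs that matched the scanner signals within 0.15 on the log2 scale in the median array. The authors' row for miR-135a-1-3p was not among them, since it departed from the scanner signal on every array.

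Named are all members, the 3 miRNAs most like each detected member by Pearson r, and up to 3 miRNAs per cell type list, those with the highest mean signal. MiR-449c-5p was named after its values were seen. Members and lists were chosen with earlier results of these data known. Further alternatives were other scalings, background correction (normexp, on the median spot signal), probe summaries, detection filters, floors, the slide or replicate number as a block, array brightness as a covariate, other variance models and leaving out each array. The processed values without 1 array were added after seeing the data. With 1 PBS/PBS array left out, the lone array was assumed to vary like the other groups.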

Additional observations from a re-analysis of the deposited data

Results flagged for a closer look

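In PBS/OVA, miR-135b-5p was far higher on replicate 4 than on the other 3 arrays, at 7.35 on the log2 scale against 6.36 to 6.51, by Dixon's criterion at 95%. On the same array miR-135a-1-3p was 5.07, within the range of the other PBS/OVA arrays. Without this array, OVA/OVA exceeded PBS/OVA by 0.65 (limma adjusted p = 0.0379) for miR-135b-5p.

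In OVA/OVA DEX, miR-135a-1-3p was far lower on replicate 2, at 3.55 against 4.55 to 4.73 on the other 3 arrays, by the same criterion. On this array 0 of its 20 spots were well above background. The difference between OVA/OVA and OVA/OVA DEX without it was 1.78 (limma adjusted p = 0.00177). Dixon's criterion flags about 1 in 20 groups by chance, and 6 groups of arrays were examined.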

How the results depend on the processing

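For OVA/OVA against OVA/OVA DEX, 18 of 20 alternatives kept the call of miR-135b-5p and 17 of 18 that of miR-135a-1-3p. The exceptions were normexp (0.88 and 0.53), which adds 50 to every spot, and for miR-135b-5p the processed values (1.02). The processed values of miR-135a-1-3p, which tended the other way, were not among its alternatives. Several alternatives could hardly differ from the main fit. The mean over probes gave the same 25 and 9 calls, and the detection filters and other variance models left the size of the difference unchanged. The 20 also include the processed values without OVA/OVA DEX replicate 4, added after the data were seen. Leaving out 1 array gave 2.09 to 2.32 and 1.78 to 2.19, all called. Against PBS/OVA, OVA/OVA reversed for miR-135b-5p without scaling (-0.10) and with control spots (-0.21), and ran from 0.32 to 0.65 with 1 array left out. MiR-135a-1-3p was called with the brightest probe (1.02) and the slide as a block (1.04), fell to 0.33 with control spots, and ran from 0.79 to 1.29 with 1 array left out. For OVA/OVA DEX against PBS/OVA, miR-135b-5p lost the call with normexp (-0.45), the processed values (-0.63) and the exact Mann-Whitney test (-1.77, adjusted p = 0.185), and ran from -1.90 to -1.53 with 1 array left out. MiR-135a-1-3p reversed with normexp (0.043) and ran from -1.27 to -0.78.

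Against PBS/PBS, miR-135b-5p in PBS/OVA moved to 1.23 without scaling and 0.98 with normexp. In OVA/OVA it moved to 1.69 with the percentile of all miRNAs, 1.13 without scaling, 1.60 with quantile normalization, 1.62 with control spots and 1.42 with normexp. Leaving out 1 array gave 1.45 to 2.17 and 1.87 to 2.58. For miR-135b-5p minus miR-135a-1-3p, the change between OVA/OVA and OVA/OVA DEX passed the exact permutation test with normexp (0.36, p = 0.00952) and ran from -0.084 to 0.35 with 1 array left out, and that to PBS/OVA from -0.92 to -0.17. The processed values could not be used for it.

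In all, 25 miRNAs were called higher and 9 lower in OVA/OVA than in OVA/OVA DEX. This became 18 and 18 (percentile of all miRNAs), 13 and 10 (no scaling), 17 and 12 (quantile), 11 and 45 (control spots), 5 and 2 (normexp), 14 and 2 (processed values) and 15 and 4 (detected on all arrays). Against PBS/OVA it was 9 and 5, then 2 and 6, 0 and 3, 5 and 7, 1 and 34, 2 and 0, 9 and 0, and 7 and 1 in the same order, 18 and 6 without PBS/OVA replicate 2 and 13 and 11 without OVA/OVA replicate 4. For OVA/OVA DEX against PBS/OVA, 1 instead of 2 was called with normexp or only the compared groups. With no scaling or with the processed values, 3 were called. The first 5 alternatives moved the median of all miRNAs from -0.088 to -0.31, -0.38, -0.15, -0.65 and 0.16 against OVA/OVA DEX, and from -0.043 to -0.28, -0.55, -0.12, -0.66 and 0.31 against PBS/OVA; the cause was not tested.

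Arrays of equal replicate number did not vary together (18 pairs, r from -0.59 to 0.38, 4 over 0.1). With the replicate block, miR-135b-5p differed by 2.30, 0.53 and -1.77 and miR-135a-1-3p by 2.27, 1.17 and -1.11 in the 3 comparisons, with no call changed and 39, 15 and 2 miRNAs called. Signals close to the background limit the precision.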
